A study of Arabidopsis thaliana with 108 samples.

Results

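Histone H3 lysine 4 trimethylation (H3K4me3) and histone H3 lysine 27 trimethylation (H3K27me3) were compared between adult fwa plants and Col-0 wild type seedlings of Arabidopsis thaliana. The comparison used 9 of the 108 samples of the series, which was made to study TRB proteins. It held 2 H3K27me3 libraries of fwa against 2 of Col-0, and 3 H3K4me3 libraries of fwa against 2 of Col-0. A gene carried a mark in a library when at least 1 bp of its body or of the 1 kb upstream lay under a deposited peak on chromosomes 1 to 5. The members described here are the genes marked in every library of one side and in no library of the other. Of 27444 protein-coding genes, 718 were called in this way in at least one of the marks.

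The fwa line is an epiallele in the Columbia-0 background. The DNA methylation that silences the FWA promoter has been lost in it and stays lost through generations. According to GEO's labels the fwa chromatin came from flowers at 5 to 6 weeks and the Col-0 chromatin from seedlings at 2 to 3 weeks. The methods of the study name leaves as the material of the TRB-ZF histone experiment, to which fwa was the control. They also give a younger age range for it than the labels do. The tissue and exact age of the fwa libraries are thus not settled by the sources. Neither side carries a TRB-ZF transgene, and the antibodies came from the same supplier. Genotype, tissue, age and experiment all differ together between fwa and Col-0 and cannot be told apart. The labels do not say whether replicates came from separate plants, so the tests below measure the spread between libraries only.

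H3K4me3 lies over the start of transcribed genes and is written by trithorax-group methyltransferases. H3K27me3 is written by Polycomb repressive complex 2 and covers whole genes that are held silent, among them most regulators of flowering and organ identity outside the tissue that uses them. Genes can carry both marks in one library because a tissue mixes cells in different states, or because both marks lie on the same chromatin.

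The tissue labels were checked against fixed marker lists. H3K4me3 peaks lay on 14, 3 and 15 of 22 floral organ identity genes in fwa replicates 1, 2 and 3, against 3 and 3 in Col-0 seedlings. Fwa replicate 2 thus had as few as the seedlings and went against its floral label. Of 9 shoot meristem genes, 4, 0 and 4 were marked in fwa and 1 and 0 in Col-0. All 7 housekeeping genes carried H3K4me3 in all 5 libraries. The same split ran through the TRB-ZF lines, which are fwa plants with a transgene. Their replicates 1 and 3 had 13 or 14 floral genes marked, and their replicates 2 had 4. Of the mutant seedlings, trb1/2/3 had 9 and 4 and jmj14-1 had 3. Defining anther and pollen genes were mostly unmarked, with 2, 2 and 3 of 16 in fwa and 2 and 3 in Col-0. Of 36 root genes, 6, 5 and 7 were marked in fwa and 7 and 3 in Col-0. The main H3K4me3 counts that follow are therefore also given without fwa replicate 2.

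**Figure D1:**
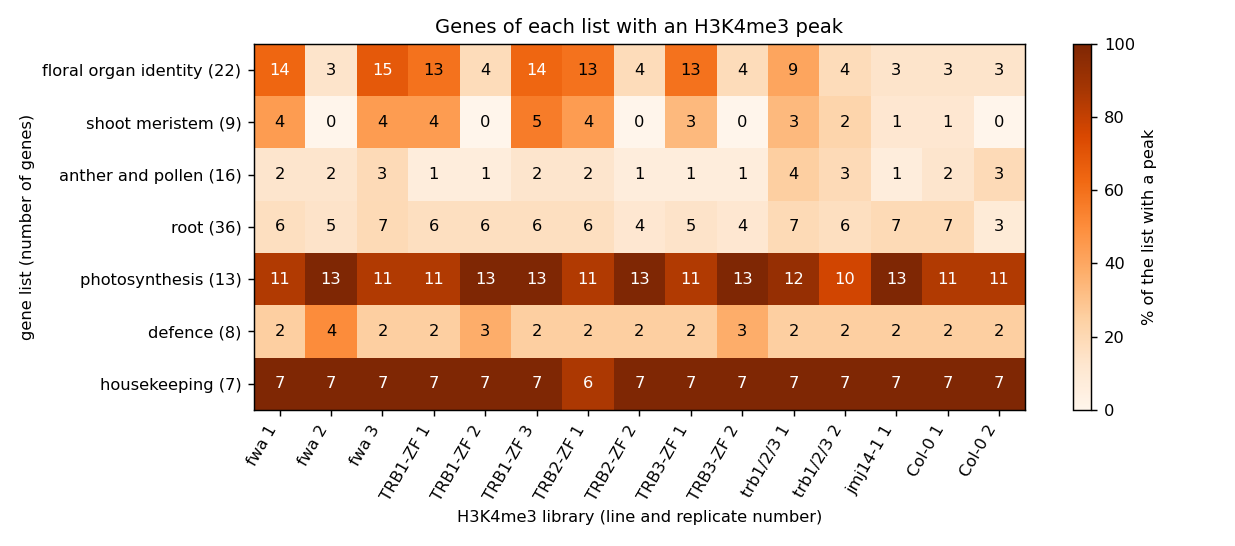
Number of genes of each fixed list (rows, list size in parentheses) with an H3K4me3 peak in each library (columns); the colour gives the percentage of the list. Floral organ identity genes are at 14 and 15 of 22 in fwa replicates 1 and 3, and at 3 in fwa replicate 2 and in both Col-0 libraries.

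Peak lists hold no read depth, so the depth behind each list is unknown. The H3K27me3 lists had 13688 and 11390 peaks over 11.6 and 14.7 Mb in fwa, against 10222 and 10198 peaks over 15.8 and 17.2 Mb in Col-0. These covered 8060 and 8691 protein-coding genes in fwa and 8869 and 9412 in Col-0. The difference in means was -765 genes, with an exact two-sided permutation p of 0.333, the smallest that 2 against 2 libraries allow. The H3K4me3 lists had 16453 to 17085 peaks in fwa and 17126 and 16030 in Col-0. They marked 17930, 17629 and 18335 genes in fwa against 18153 and 16638 in Col-0. The difference of 569 genes had an exact permutation p of 0.5, where 0.1 is the smallest possible. Col-0 replicate 2 was the weakest H3K4me3 list, with a median −log10 q of 18.4 against 56.6 to 105 in the other lists. Without it the difference was -188.3 genes. In covered length, fwa H3K27me3 lists averaged 13.1 ± 2.21 Mb and Col-0 lists 16.5 ± 1.01 Mb (SD, n = 2 each, exact permutation p = 0.333). Fwa H3K4me3 lists averaged 14.5 ± 0.891 Mb (n = 3) and Col-0 lists 12.9 ± 2.82 Mb (n = 2), with an exact permutation p of 0.5.

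H3K27me3 was found only in fwa at 93 protein-coding genes and only in Col-0 at 444. These are 0.339% and 1.62% of all protein-coding genes, the background against which each list below is read. H3K4me3 was found only in fwa at 132 genes (0.481%) and only in Col-0 at 61 genes (0.222%). The great majority of genes did not separate fwa from Col-0. H3K27me3 was present in all 4 libraries at 7169 genes and H3K4me3 in all 5 at 16019. The members were weakly covered. Fwa only H3K27me3 genes had a median of 287 and 319 bp under peaks in the fwa libraries, and genes marked on both sides had 1001 and 1292 bp. Fwa only H3K4me3 genes had a median of 494, 428 and 622 bp, against 858, 844 and 926 bp for genes marked on both sides.

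The balance between the sides depended on how lists of unequal breadth were set against each other. When each list was shortened to the covered length of the narrowest, 595 genes were fwa only and 67 Col-0 only for H3K27me3, and 40 were fwa only and 156 Col-0 only for H3K4me3. Under that setting, 29 of the 93, 36 of the 444, 33 of the 132 and 1 of the 61 genes were still called on their side. Over the 6 settings that changed the threshold, the list length or the gene window, 5, 7, 20 and 0 genes of these classes were called in every one. The counts therefore describe these lists, and neither side can be said to hold more marked genes. Without fwa replicate 2, 578 genes (2.11%) were fwa only and 234 (0.853%) Col-0 only for H3K4me3. For H3K27me3 they were 355 (1.29%) and 1203 (4.38%). With fwa replicate 2 as the only fwa library, 454 genes (1.65%) were fwa only and 277 (1.01%) Col-0 only for H3K4me3.

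FWA (AT4G25530, chromosome 4, 13038360 to 13042464, forward strand) encodes a class IV homeodomain-leucine zipper protein that delays flowering when it is expressed outside the endosperm. It had 1229, 802 and 1335 bp under H3K4me3 peaks in fwa replicates 1, 2 and 3, against 0 and 0 in Col-0. Every fwa library was marked and neither Col-0 library was. The fwa peak ran from position -66 to 1162 from the gene start in replicate 1, from -113 to 688 in replicate 2 and from -154 to 1180 in replicate 3. Its −log10 q was 105, 74.8 and 140, so it lay at the transcription start and was strong in all 3. H3K27me3 showed the reverse at the same gene, with 0 and 0 bp in fwa against 937 and 2437 bp in Col-0. The Col-0 peaks lay at 922 to 1119 and 1366 to 2104 in replicate 1, inside the gene, and at -89 to 723, 877 to 2166 and 2337 to 2670 in replicate 2. The first of replicate 2 spanned the gene start, where the fwa H3K4me3 peaks lay. Their best −log10 q was 11.8 and 18.6. The H3K4me3 call held in all 6 settings and the H3K27me3 call in 5, being lost at equal covered length.

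Libraries that did not enter the calls gave the same order at FWA. The zinc finger of the TRB-ZF lines was designed to bind the FWA promoter. The paper reports lower H3K4me3 and higher H3K27me3 over FWA in these lines than in fwa. They are thus not untreated fwa plants at this gene. The 7 H3K4me3 libraries of TRB-ZF lines, which are fwa plants, had 386 to 937 bp, and both trb1/2/3 libraries and the jmj14-1 library had 0. H3K27me3 covered 1130 and 1013 bp in the trb1/2/3 seedlings. The TRB-ZF lines had 0 in 4 of 5 distinct lists and 284 bp in TRB3-ZF replicate 2.

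**Figure D2:**
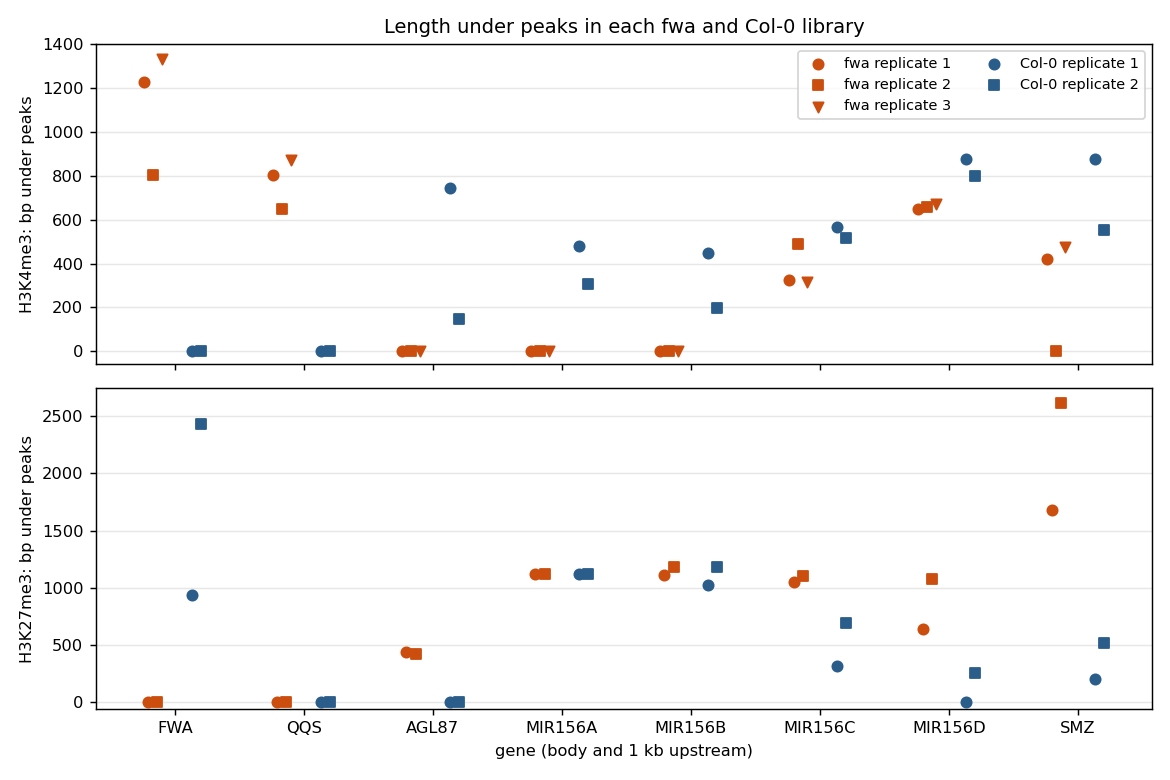
Length under peaks (bp, y axis) over the body and 1 kb upstream of 8 genes (x axis) in each fwa (orange) and Col-0 (blue) library, H3K4me3 above and H3K27me3 below; 1 point per library. FWA and QQS have H3K4me3 in the 3 fwa libraries only, MIR156A and MIR156B in the 2 Col-0 libraries only.

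QQS (AT3G30720, chromosome 3, 12349047 to 12349933) is an orphan gene of starch metabolism whose silencing depends on DNA methylation. It had 804, 649 and 873 bp of H3K4me3 in fwa against 0 and 0 in Col-0, and no H3K27me3 in any of the 4 libraries. It was fwa only in all 6 settings. QQS lies in the block from 10 to 16 Mb of chromosome 3 described below, where 8.51% of annotated genes were fwa only for H3K4me3. Of the 10 listed loci that are silenced by DNA methylation or imprinted, FWA and QQS were the fwa only ones for H3K4me3. In the fwa and Col-0 libraries 7 of the loci had no H3K4me3. Among those 7, SDC, an F-box gene silenced through promoter repeats, had neither mark in the fwa and Col-0 libraries. The imprinted genes PHE1, PHE2, MEA, FIS2, HDG3 and HDG9 carried H3K27me3 in all 4 libraries. ROS1, which encodes a DNA demethylase, had 877, 810 and 997 bp of H3K4me3 in fwa and 836 and 199 bp in Col-0. Of the 16 class IV homeodomain-leucine zipper genes, FWA was the only one called in either mark, 13 carried H3K27me3 on both sides and 6 carried H3K4me3 on both sides. ATML1, a relative that specifies epidermis, had 1920, 0 and 2042 bp of H3K4me3 in fwa and 1277 and 156 bp in Col-0. PDF2, its closest partner in the epidermis, had 1665, 0 and 1667 bp in fwa and 777 and 0 bp in Col-0. ROS1, ATML1 and PDF2 were not called and were picked once their values were known.

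Both calls crossed at 5 protein-coding genes. FWA, AT3G27473, AT3G22410 and AT5G10760 carried H3K27me3 only in Col-0 and H3K4me3 only in fwa (4 genes, 0.0146% of all). AT3G27473 (a cysteine/histidine-rich C1 domain protein, chromosome 3) had 976, 724 and 1136 bp of H3K4me3 in fwa against 0 and 0 in Col-0. Its H3K27me3 was 0 and 0 bp in fwa and 1035 and 1991 bp in Col-0, so the marks exchanged as at FWA. AT3G27473 lies in the same block of chromosome 3 as QQS. AT3G22410, a Sec14p-like lipid transfer protein, had 1051, 282 and 1255 bp of H3K4me3 in fwa, with 0 and 0 in Col-0. Its H3K27me3 was 0 and 0 bp in fwa against 645 and 672 bp in Col-0. AT5G10760, an aspartyl protease, stood just inside the rule. It had 10, 1979 and 83 bp of H3K4me3 in fwa and none in Col-0, and replicate 2 held nearly all of it. H3K27me3 there was 0 and 0 bp in fwa and 704 and 1281 bp in Col-0.

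In the opposite direction 1 gene crossed (0.00364%). AGL87 (AT1G22590, chromosome 1, 7981722 to 7984334), a MADS-box gene, had 437 and 416 bp of H3K27me3 in fwa and 0 and 0 in Col-0. Its H3K4me3 was 0, 0 and 0 bp in fwa against 747 and 147 bp in Col-0. The fwa H3K27me3 peaks lay at 1869 to 2305 and 1863 to 2278 from the gene start, and the Col-0 H3K4me3 peaks at 113 to 859 and 311 to 457, so the marks occupied different parts of the gene. The Col-0 peak of replicate 2 was weak, with a −log10 q of 2.71. AGL87 was lost when at least 150 bp were required, at a −log10 q of at least 10 and at equal covered length. The 1 gene that crossed in this direction at the stricter q was AT5G21280, and the 4 at equal covered length did not include AGL87 either. Without fwa replicate 2 in either mark, 11 genes crossed towards H3K27me3 and 57 towards H3K4me3. At equal covered length 4 crossed towards H3K27me3 and 0 towards H3K4me3.

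MicroRNA156 keeps Arabidopsis plants juvenile by silencing SPL transcription factors, and it falls with age. MicroRNA172, which SPL factors induce, acts later against AP2-like repressors of flowering such as SMZ, SNZ and TOE3. The 2 miRNA genes called for H3K4me3 in the list of flowering and age genes were MIR156A and MIR156B, both Col-0 only, where 0.179% of all 37899 annotated genes were called. MIR156A to MIR156F share their mature 5p strand, and therefore the seed shown here in capitals (bases 2 to 8), from RefSeq on TAIR10.1. MIR172 genes have their own common seed. The sequences are shown because the calls as reported fell on the miR156 side of this pair.
ath-miR156a-5p: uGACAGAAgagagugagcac
ath-miR156b-5p: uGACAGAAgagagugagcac
ath-miR172a: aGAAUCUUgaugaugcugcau
ath-miR172c: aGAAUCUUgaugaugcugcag
ath-miR172e-3p: gGAAUCUUgaugaugcugcau
The MIR156A strand lies at chr2:10676534-10676553 (reverse strand) and the MIR156B strand at chr4:15074945-15074964 (forward strand).

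MIR156A had 0, 0 and 0 bp of H3K4me3 in fwa against 481 and 305 bp in Col-0, while H3K27me3 covered its whole window of 1123 bp in all 4 libraries. MIR156B had 0, 0 and 0 bp of H3K4me3 in fwa and 449 and 199 bp in Col-0, with 1114 and 1183 bp of H3K27me3 in fwa and 1020 and 1183 bp in Col-0. Both loci thus carried H3K27me3 on both sides and H3K4me3 in the seedlings alone. The −log10 q of the Col-0 H3K4me3 peaks was 28.6 and 15.1 at MIR156A and 25.0 and 4.80 at MIR156B. MIR156A was lost only at equal covered length among the 6 settings, and MIR156B also at a −log10 q of at least 10. MIR172B, not called as reported, was fwa only for H3K4me3 at that stricter q and at equal list length. There 0.448% and 0.401% of all protein-coding genes were fwa only for H3K4me3. In seedlings outside the calls, MIR156A had 708 and 576 bp of H3K4me3 in trb1/2/3 and 329 bp in jmj14-1, and MIR156B had 489, 513 and 490 bp. In the 7 TRB-ZF libraries MIR156A had 0 bp throughout, and MIR156B had 0 bp in 3 and 147 to 436 bp in 4.

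Other members of the pathway did not meet the rule, and those named next were chosen after their values were seen. MIR156C had 1046 and 1104 bp of H3K27me3 in fwa against 318 and 688 bp in Col-0. MIR156D had 642 and 1072 bp in fwa against 0 and 249 bp in Col-0. SMZ, an AP2-like repressor, had 1681 and 2615 bp in fwa against 205 and 516 bp in Col-0. In all 3 genes the fwa libraries lay above the Col-0 libraries without overlap, an order held by 1.16% of all annotated genes, while 13.5% had the opposite order. H3K4me3 at SMZ was 421, 0 and 476 bp in fwa and 875 and 553 bp in Col-0, again without overlap. The Col-0 libraries were the longer without overlap at 1.75% of annotated genes for H3K4me3, and the fwa libraries at 6.4%. MIR156E and MIR156F had H3K27me3 over their whole windows in all 4 fwa and Col-0 libraries, and no H3K4me3 in those 5 libraries.

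TOE3 (AT5G67180), an AP2-like target of miR172, was the only gene of the 44 flowering and age genes called for H3K27me3. It had 0 and 0 bp in fwa and 475 and 397 bp in Col-0, and its H3K4me3 was 1077, 942 and 1364 bp in fwa against 323 and 0 bp in Col-0. The TOE3 call was lost at a −log10 q of at least 10 and at equal covered length. There the list instead had 2 and 3 fwa only genes, SMZ and MIR156D in both and MIR156C at equal covered length, and 0 Col-0 only genes. Of all protein-coding genes, 0.197% were fwa only and 1.59% Col-0 only at the stricter q. At equal covered length these shares were 2.17% and 0.244%, so the fwa only side was the larger over all genes as well. Without fwa replicate 2, 3 genes of the list were fwa only for H3K4me3 and 4 Col-0 only, and these 4 were MIR156A, MIR156B, TEM2 and SNZ. The shares over all protein-coding genes were then 2.11% and 0.853%. The list otherwise had 25 genes with H3K27me3 on both sides and 17 with H3K4me3 on both sides. FT and TSF, the mobile flowering signals, had 1740 and 2099 bp and 2393 and 2939 bp of H3K27me3 in fwa, against 2552 and 2870 bp and 2725 and 2875 bp in Col-0. Neither had H3K4me3 in any library. FT, TSF and FLC were not called and were likewise picked with their values known. FLC, the floral repressor of the vernalization pathway, had H3K27me3 in every library and 164, 0 and 290 bp of H3K4me3 in fwa against 490 and 412 bp in Col-0.

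The floral genes themselves were not called, because fwa replicate 2 lacked them. Of the 22 floral organ identity genes, 0 were fwa only with all libraries and 11 were without that replicate, where 2.11% of all genes were called. These were AP1, AP3, PI, AG, SEP1, SEP2, SEP3, SHP1, SHP2, STK and SPL/NZZ, nearly all of them MADS-box genes that specify the whorls of the flower. AG, which specifies stamens and carpels, had 1684, 0 and 1886 bp of H3K4me3 in fwa and 0 and 0 in Col-0. AP3, which specifies petals and stamens, had 1090, 0 and 1128 bp in fwa, also against 0 and 0. SEP3, a cofactor of all floral organ genes, had 1994, 0 and 1977 bp against 0 and 0. The same genes kept H3K27me3 in all 4 libraries, as did 21 of the 22 genes of the list. AG had 6195 and 6684 bp of H3K27me3 in fwa and 6684 and 6684 bp in Col-0. The meristem genes STM, KNAT1 and KNAT2 followed the floral genes, with STM at 958, 0 and 1160 bp of H3K4me3 in fwa and 0 and 0 in Col-0. LFY, CAL, UFO, CRC, SUP, RBE and INO had no H3K4me3 in any of the 5 libraries.

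In all, 446 protein-coding genes had H3K4me3 in fwa replicates 1 and 3 and in neither fwa replicate 2 nor Col-0, and 282 had it in fwa replicate 2 alone. Besides the floral and meristem genes, the first set held MAF5, SPL4 and AGL42 of the flowering list and L1L of the seed list. MAF5, a floral repressor related to FLC, had 155, 0 and 218 bp in fwa and 0 and 0 in Col-0. SPL4 had 969, 0 and 1079 bp in fwa and 0 and 0 in Col-0. The second held the defence genes PR2 and PR5, with 929 and 683 bp in fwa replicate 2 and 0 bp in the other 4 libraries, and the chlorophyll-binding genes LHCB1.1 and LHCB1.2. SVP and TEM2 were also picked with their values known. SVP, a repressor of flowering, had 3956 and 0 bp of H3K27me3 in fwa replicates 1 and 2 and 0 and 0 in Col-0. TEM2, another repressor, had 0, 1610 and 0 bp of H3K4me3 in fwa and 1524 and 1403 bp in Col-0. Fwa replicates 1 and 3 shared 0.969 of the H3K4me3 genes found in either (the Jaccard index). Replicate 2 shared 0.898 and 0.892 with them. With Col-0 replicate 1, fwa replicates 1, 2 and 3 shared nearly alike, 0.922, 0.922 and 0.920, and with Col-0 replicate 2 they shared 0.889, 0.908 and 0.875. For H3K27me3, fwa replicates 1 and 2 shared 0.786, and Col-0 replicates 1 and 2 shared 0.902. With Col-0 replicates 1 and 2, fwa replicate 1 shared 0.799 and 0.779 of H3K27me3 genes, and fwa replicate 2 shared 0.836 and 0.829. In H3K27me3, fwa replicate 2 was thus closer to both Col-0 lists than to fwa replicate 1.

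Genes of the photosynthetic apparatus were among the Col-0 only H3K27me3 genes. Of 13 listed genes, 7 were called in Col-0 only, where 1.62% of all genes were, and 0 in fwa only. LHCB1.3 (AT1G29930), a chlorophyll-binding protein of photosystem II, had 0 and 0 bp in fwa and 1178 and 1125 bp in Col-0. LHCA4 (AT3G47470), of photosystem I, had 0 and 0 bp in fwa and 1576 and 1564 bp in Col-0. PSAD1, a subunit of photosystem I, had 0 and 0 bp in fwa against 608 and 744 bp in Col-0. LHCB1.1, LHCB1.2, LHCA1 and LHCA2 had 0 bp in both fwa libraries and between 809 and 1422 bp in the Col-0 libraries. LHCB1.1, LHCB1.2 and LHCB1.3 are near-identical neighbours on chromosome 1, and the lists rest on uniquely mapped reads, so their separate values are uncertain. RBCS2B and RBCS1A, small subunits of Rubisco, were marked in all 4 libraries. RBCS1A had 440 and 130 bp in fwa and 1117 and 1191 bp in Col-0. LHCB2.1, outside the list, was among the 10 longest Col-0 only genes with 0 and 0 bp in fwa and 1413 and 1448 bp in Col-0.

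These genes also carried H3K4me3. LHCA4 had 1062, 1717 and 1376 bp of H3K4me3 in fwa and 1589 and 1440 bp in Col-0, and 5 of the 7 called genes were marked in all 5 libraries. The other 2 were LHCB1.1 and LHCB1.2, with 962 and 828 bp in fwa replicate 2 alone. The list as a whole had H3K27me3 at 2 and 2 genes in fwa and at 9 and 11 genes in Col-0. It was at 3 and 2 genes in the trb1/2/3 seedlings. The paper reports more regions losing than gaining H3K27me3 in this mutant. Its counts therefore do not tell whether the Col-0 level is general to seedlings. The call of all 7 held when lists had equal numbers of peaks, 2 were called at a −log10 q of at least 10, and 1, LHCB1.3, at equal covered length. Under that last setting RBCS1A was fwa only, so the list had 1 gene on each side. There 2.17% of all protein-coding genes were fwa only and 0.244% Col-0 only.

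**Figure D3:**
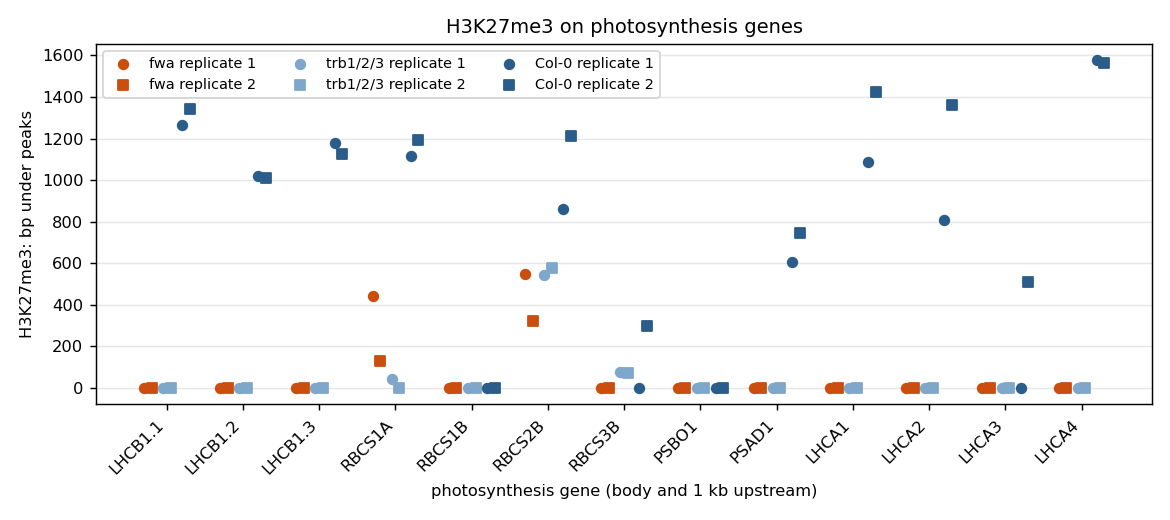
Length under H3K27me3 peaks (bp, y axis) over the body and 1 kb upstream of the 13 listed photosynthesis genes (x axis) in fwa (orange), trb1/2/3 (light blue) and Col-0 (dark blue), 2 libraries each. The 7 called genes lie at 0 in fwa and in trb1/2/3 and between 608 and 1576 bp in Col-0.

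H3K4me3 on both sides was found at 226 of the 444 Col-0 only H3K27me3 genes (50.9%) and at 44 of the 93 fwa only ones (47.3%). The share was 24.6% among the 7169 genes with H3K27me3 on both sides and 58.4% over all protein-coding genes. Besides LHCA4 and LHCB2.1, the 10 genes with the longest cover held AT1G56540, a TIR-NBS-LRR disease resistance gene with 0 and 0 bp in fwa and 3726 and 3910 bp in Col-0. A second resistance gene, AT1G61300, had 0 and 0 bp in fwa and 1284 and 1779 bp in Col-0. The neighbours AT5G65225 and MYB53 on chromosome 5 had 0 bp in fwa and 3119 and 2551 bp, and 2186 and 2183 bp, in Col-0. MYB53, a regulator of suberin, had no H3K4me3 in any library, and its H3K27me3 remained in trb1/2/3 seedlings at 2463 and 2316 bp. AT2G20670 (DUF506) and AT1G56220 (dormancy/auxin associated) had 1686 and 1685 bp, and 1450 and 1415 bp, in Col-0 alone. Both were at 0 in fwa, in the TRB-ZF lines and in trb1/2/3. AT2G04080, a MATE efflux protein, had 1464 and 1738 bp in Col-0 and 0 in fwa, and AT5G54050, a C1 domain protein, 1430 and 1496 bp in Col-0 and 0 in fwa. Among 15 gene families read from product names, the Col-0 only share ran from 0 to 7 of 148 receptor-like kinases (4.73%), where 1.62% of all genes were called. F-box proteins had 18 of 653 (2.76%), MADS-box proteins 4 of 120 (3.33%) and MYB proteins 5 of 180 (2.78%). These few genes a family allow no ranking. Among genes of the Polycomb and H3K4 machinery none of 17 was called. SDG2, the main enzyme of H3K4 trimethylation, came near with 0 and 312 bp of H3K27me3 in fwa and 7102 and 7402 bp in Col-0. SDG2 is named for that value and not by the rule. At a −log10 q of at least 10, SDG2 and FIS2 of this list were Col-0 only for H3K27me3, where 1.59% of all genes were. At equal list length SDG2 alone was, where 2.29% of all genes were.

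The fwa only genes of both marks gathered in the middle of chromosome 3. The block from 10 to 16 Mb was set after 1 Mb bins had been seen, so its shares are a description. It held 1539 annotated genes, of which 131 (8.51%) were fwa only for H3K4me3, where 0.821% of all annotated genes were called. Elsewhere on chromosome 3 the number was 39 of 6085 (0.641%), and on the other chromosomes 141 of 30275 (0.466%). Single 1 Mb bins of other chromosomes rose above that pooled share, to 3.81% at 4 to 5 Mb of chromosome 4 and 3.08% at 13 to 14 Mb of chromosome 1. The bins of the block ran from 3.01% to 12.1%. Fwa only H3K27me3 genes numbered 50 (3.25%) in the block, 26 (0.427%) elsewhere on chromosome 3 and 80 (0.264%) on the other chromosomes, where 0.412% of all annotated genes were called. Col-0 only genes did not gather there, with 1 gene for H3K4me3 (0.179% over all genes) and 8 for H3K27me3 (1.51%). Among protein-coding genes alone the block held 28 of 538 (5.20%) for H3K4me3 and 17 (3.16%) for H3K27me3. It held 19 of the 40 fwa only H3K4me3 genes at equal covered length, against 32 of the 595 fwa only H3K27me3 genes under that setting and 17 of 93 as reported. All 5 fwa only H3K27me3 genes that were called in every setting lay in it. With fwa replicate 2 left out, the block held 162 fwa only H3K4me3 genes (10.5%), the rest of chromosome 3 held 140 of 6085, and the other chromosomes 588 of 30275 (1.94%), so the step was smaller.

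**Figure D4:**
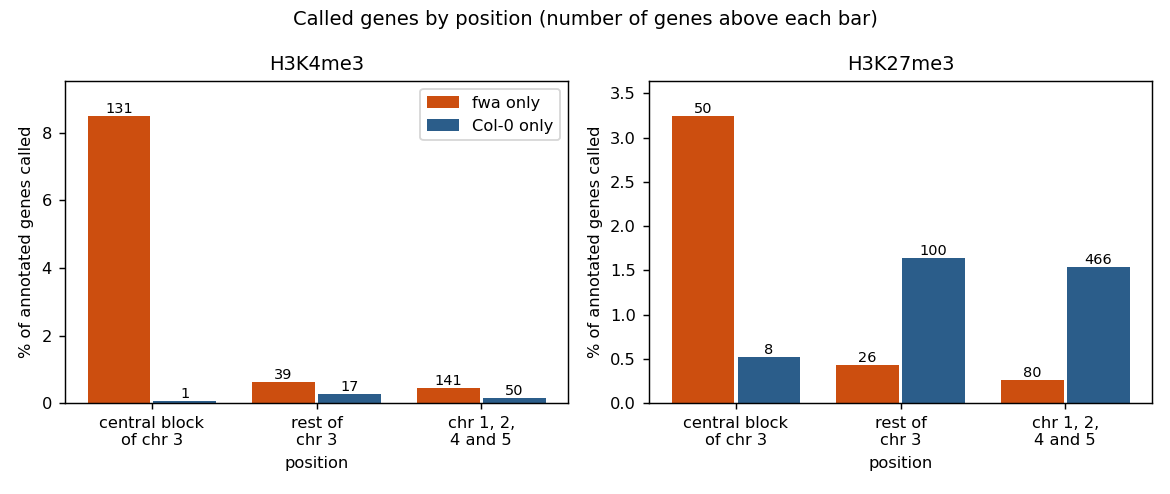
Percentage of annotated genes called fwa only (orange) and Col-0 only (blue) in the central block of chromosome 3, in the rest of chromosome 3 and on the other chromosomes, with the number of genes above each bar, for H3K4me3 (left) and H3K27me3 (right; the y scales differ). The fwa only bars are highest in the central block, at 8.51% for H3K4me3 and 3.25% for H3K27me3.

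The block was marked more widely by H3K4me3 in every library of fwa descent. H3K4me3 lay on 26.3%, 24.6% and 27.2% of its genes in fwa and on 24.4% to 27.5% in the TRB-ZF lines. It lay on 16.6% to 17.9% in trb1/2/3 and jmj14-1 seedlings and on 15.9% and 14.6% in Col-0. H3K27me3 lay on 270 and 301 of the 1539 genes in fwa, above 246 and 262 in Col-0 and 212 and 192 in trb1/2/3. The TRB-ZF lines had 229 to 355, and TRB2-ZF replicate 1, at 229, lay below Col-0. Outside the block, H3K27me3 marked 26.5% and 28.8% of genes in fwa and 24.3% to 28.3% in TRB-ZF. It marked 29.5% and 31.3% there in Col-0, and 27.3% and 26.3% in trb1/2/3. H3K4me3 outside the block marked 55.7%, 54.7% and 57.1% of genes in fwa, and 56.3% and 51.3% in Col-0. Fwa replicate 2 did not stand apart here. Many of the genes are not protein-coding. Over the genome, fwa only H3K4me3 fell on 132 protein-coding genes, 131 pseudogenes, 26 long noncoding RNAs and 11 transcribed pseudogenes, while Col-0 only H3K4me3 fell on 0 pseudogenes.

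Of the 10 protein-coding fwa only H3K4me3 genes with the longest cover, 6 lay in the block. AT3G43148, a myosin heavy chain-like protein, had 2810, 2734 and 2785 bp in fwa against 0 and 0 in Col-0. AT3G44265 and AT3G44070, related to beta-galactosidases, had 1256, 1252 and 1357 bp, and 1125, 1102 and 1127 bp, in fwa alone. A related gene on chromosome 5, AT5G01080, had 1424, 1117 and 1510 bp in fwa and 0 and 0 in Col-0. AT3G30770 (an aspartyl protease), AT3G42723 and AT3G43432 completed the group in the block. In each of these genes the 3 fwa libraries gave similar lengths, replicate 2 included. AT5G03090, on chromosome 5, had 1135, 1187 and 1223 bp in fwa and 0 and 0 in Col-0.

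The remaining 2 of the 10 had H3K27me3 on both sides. NAC019 (AT1G52890), a stress-responsive NAC transcription factor, had 1313, 1106 and 1390 bp of H3K4me3 in fwa against 0 and 0 in Col-0. Its H3K27me3 was 540 and 1722 bp in fwa and 1748 and 1924 bp in Col-0. CKX5 (AT1G75450), which degrades cytokinin, had 1004, 1307 and 1318 bp of H3K4me3 in fwa against 0 and 0. Its H3K27me3 was 1621 and 1151 bp in fwa and 2064 and 2292 bp in Col-0.

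The 10 fwa only H3K27me3 genes with the longest cover were all on chromosome 3, and 8 lay in the block. AT3G42060, another myosin heavy chain-like protein, had 3343 and 3560 bp in fwa against 0 and 0 in Col-0, and no H3K4me3 in any library. AT3G30200, a transposase of the Ptta/En/Spm family, had 3392 and 2820 bp in fwa and 0 and 0 in Col-0. AT3G28780 (DUF1216) had 1945 and 2311 bp in fwa, and AT3G32380, annotated as a retrotransposon polyprotein, 778 and 1138 bp, with 0 in Col-0 for both. The neighbours AT3G43280, AT3G43290 and AT3G43291 had 1474 and 1474 bp, 1548 and 1548 bp, and 1061 and 1299 bp in fwa and 0 in Col-0. AT3G29633 had 1470 and 1536 bp in fwa and 0 in Col-0. Outside the block, AGF2, an AT-hook protein of gibberellin feedback, had 1244 and 838 bp in fwa against 0 and 0, with H3K4me3 in every library. AT3G50320 had 934 and 1796 bp in fwa against 0 and 0.

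Both marks were fwa only at 6 of 27444 protein-coding genes, and at 8 without fwa replicate 2 for H3K4me3. The 6 were AT3G29633, AT3G43290, AT3G43280, AT3G42723, AT3G50320 and AT1G14800. AT3G43280 and AT3G43290 are neighbours with overlapping windows, and each had 429, 231 and 549 bp of H3K4me3 in fwa. The same peaks can thus count for both, so the 6 are not independent loci. AT3G29633, of unknown function, had 812, 768 and 800 bp of H3K4me3 and 1470 and 1536 bp of H3K27me3 in fwa, and nothing of either in Col-0. Both marks thus appeared on the same genes in fwa, where Col-0 had neither. AT1G14800, an OB-fold nucleic acid-binding protein, lay on chromosome 1, and the other 5 on chromosome 3. Conversely CEP3, a cysteine proteinase, was Col-0 only in both, with 0, 0 and 0 bp of H3K4me3 in fwa and 705 and 285 bp in Col-0. Its H3K27me3 was 0 and 0 bp in fwa and 260 and 239 bp in Col-0.

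The 61 Col-0 only H3K4me3 genes were short-covered and least stable, with a median of 378 and 275 bp in the Col-0 libraries, and none was called in every setting. AT5G49700, an AT-hook DNA-binding protein, led with 0, 0 and 0 bp in fwa and 1036 and 1180 bp in Col-0. Its H3K27me3 was 1380 and 1469 bp in fwa against 278 and 305 bp in Col-0, so the marks ran in opposite directions there too. The TRB-ZF lines had 1390 to 1763 bp of H3K27me3 at this gene and the trb1/2/3 seedlings 217 and 189 bp. AT5G51790, a bHLH protein, had 925 and 1057 bp of H3K4me3 in Col-0, and AT3G49950, a GRAS transcription factor, 732 and 834 bp, with 0 in fwa. Both carried H3K27me3 in all 4 libraries. YSL2, a metal-nicotianamine transporter, had 0, 0 and 0 bp in fwa and 837 and 516 bp in Col-0. HAF2, a histone acetyltransferase of the TAFII250 family, had 0, 0 and 0 bp in fwa and 509 and 709 bp in Col-0. CASP2 (AT3G11550), a membrane protein of the Casparian strip, was the one called gene of the 36 root genes. It had 0, 0 and 0 bp in fwa and 263 and 431 bp in Col-0, and it was lost at a −log10 q of at least 10 and when absence was also required within 1 kb beyond the window. Of the 61 genes, 35 (57.4%) had H3K27me3 on both sides, as did 35 of the 132 fwa only genes (26.5%) and 11.0% of genes with H3K4me3 on both sides. Without fwa replicate 2 the shares were 38.9% of 234 Col-0 only and 43.3% of 578 fwa only genes, so the order of the classes turned.

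Libraries outside the rule were read next. The TRB-ZF libraries share line, labelled tissue and experiment with fwa, and the trb1/2/3 and jmj14-1 libraries share labelled tissue, age and experiment with Col-0. Fwa only H3K4me3 genes were marked at 69.7% to 92.4% in the 7 TRB-ZF libraries and at 18.2% to 34.8% in the 3 seedling libraries, where all genes were marked at 63.2% to 68.7%. Col-0 only H3K4me3 genes were marked in 1 to 11 of 61 cases in TRB-ZF and at 82.0% to 95.1% in the seedlings. The H3K4me3 classes thus ran with the line, tissue label and experiment together, which cannot be told apart. When fwa replicate 2 was left out, the classes split the TRB-ZF lines by replicate number. The 578 fwa only genes were marked at 83.6% to 95.0% in TRB-ZF replicates 1 and 3 and at 21.6% to 23.2% in replicates 2, and the 234 Col-0 only genes at 2.99% to 14.1% and at 69.2% to 71.4%. For H3K27me3, fwa only genes were marked at 49.5% to 65.6% in TRB-ZF and in 17 and 13 of 93 cases in trb1/2/3. Col-0 only genes were marked at 9.68% to 31.5% in TRB-ZF and in 169 and 142 of 444 cases in trb1/2/3, where all genes were marked at 26.8% to 30.7%. Here most Col-0 only genes were unmarked in the mutant seedlings as well, a mutant in which the paper reports reduced H3K27me3 at many regions. The H3K27me3 lists of TRB1-ZF replicate 2 and TRB2-ZF replicate 2 were identical in all 11610 intervals and count as 1.

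**Figure D5:**
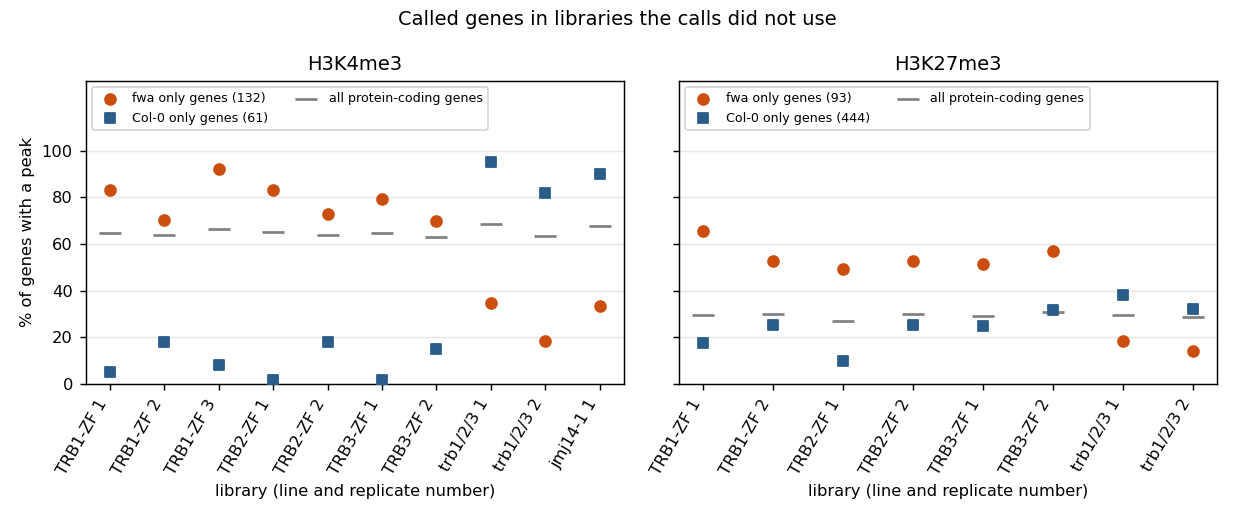
Percentage of fwa only genes (orange circles), Col-0 only genes (blue squares) and all protein-coding genes (grey bars) with a peak in each library that the calls did not use, for H3K4me3 (left) and H3K27me3 (right). In H3K4me3 the circles lie at 69.7% to 92.4% in TRB-ZF lines and the squares at 82.0% to 95.1% in seedling mutants.

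Features that the rule did not use were read for each class. FLAG-TRB1 peaks, in at least 2 of 4 lists from floral tissue, lay on 66.5% of all protein-coding genes. They lay on 46.2% of fwa only and 49.2% of Col-0 only H3K4me3 genes, and on 53.8% and 53.4% of fwa only and Col-0 only H3K27me3 genes. FLAG-JMJ14, an H3K4 demethylase, lay on 4943 of all 27444 genes and on 17.4% of fwa only and 36.1% (22 of 61) of Col-0 only H3K4me3 genes. These shares were 22.7% (131 of 578) and 40.6% (95 of 234) without fwa replicate 2. For H3K27me3 the shares of fwa only and Col-0 only genes were 23.7% and 21.4%. FLAG-TRB1 lay on 58.8% of fwa only and 50.9% of Col-0 only H3K4me3 genes without fwa replicate 2. The median length of the members was 1713 to 1785 bp, against 2078 bp for all genes. Members of one class lay next to each other at 34.4% of fwa only and 30.9% of Col-0 only H3K27me3 genes, and at 18.2% and 9.84% for H3K4me3, so neighbours are not independent.

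The telobox-like word AACCCTA, which TRB proteins bind, was searched on both strands from 250 bp before to 50 bp after each start, on TAIR10.1 sequence of RefSeq. It was found at 8.83% of protein-coding genes, at 11.4% of fwa only and 6.56% of Col-0 only H3K4me3 genes, and at 7.53% and 7.66% for H3K27me3. It was found at 7.61% of fwa only and 3.42% of Col-0 only H3K4me3 genes without fwa replicate 2. The word GAGAGA, which lies in elements linked to Polycomb recruitment in plants, was found at 29.2% of all genes. It was found at 36.4% of fwa only and 31.1% of Col-0 only H3K4me3 genes and at 26.9% and 30.4% for H3K27me3. The H3K4me3 shares were 31.0% and 25.2% without fwa replicate 2. Among the called members of the fixed lists, AACCCTA occurred at FWA, at both called miRNA genes and at CASP2. No match was found at the others, QQS, TOE3, PSAD1 and the called LHCB1 and LHCA genes. The matches are shown here with the word, or its reverse complement TAGGGTT, in capitals, on the strand of the gene.
FWA: cgccgctcTAGGGTTtttgcttt
MIR156A: tagacaaaAACCCTAgatttgat
MIR156B: ttttttatTAGGGTTttggagag
CASP2: tccaccagAACCCTAaagacctt
The word began at position 8 from the start of FWA (chromosome 4), within the H3K4me3 peak of all 3 fwa libraries. It began at position -212 at MIR156A (chromosome 2), -69 at MIR156B (chromosome 4) and -46 at CASP2 (chromosome 3). The word also occurred at the named genes AT3G43290, AT5G01080, AT5G03090 and YSL2, which are not shown. These matches describe the windows and say nothing on binding.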

How the data were processed

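Per the methods of the authors, Trim_galore trimmed the reads, Bowtie 2 placed uniquely mapping reads without mismatches on TAIR10, Samtools 1.9 took out duplicates, and MACS2 2.1.1 made the peak lists, from which sites recurring in Col-0 controls were dropped. The submitters' processing notes list Bowtie2 2.1.0. The deposited lists give peak positions, −log10 q, −log10 p, a fold enrichment ratio, a score and a summit offset; −log10 q was used to shorten lists and in an alternative that required at least 10, and the deposited score, −log10 p and summit offset were not used. No depth or H3 normalization comes with the lists. Genes, products and sequences were from RefSeq (TAIR10.1, whose nuclear chromosomes have the lengths of TAIR10), with 27444 protein-coding genes. Calls, exact two-sided permutation tests and figures used Python 3.11.15, numpy 2.4.6, pandas 2.3.3 and matplotlib 3.10.9. The calls were tested on simulated data. Named genes were FWA, every called member of 14 fixed lists, the 10 called genes of each class with the largest lowest covered length, the crossed genes and listed markers; others are marked as chosen later. Members and lists were chosen with earlier results of these data known. H3, RNA and methylation data were not used here.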

Additional observations from a re-analysis of the deposited data

How the results depend on the processing

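Counts are given in the order fwa only and Col-0 only for H3K27me3, fwa only and Col-0 only for H3K4me3, and crossed towards H3K27me3 and towards H3K4me3 (93, 444, 132, 61, 1 and 4 as reported). A −log10 q of at least 10 gave 54, 436, 123, 23, 1 and 7. Equal list length gave 49, 628, 110, 90, 1 and 6. Equal covered length gave 595, 67, 40, 156, 4 and 0, the setting that turned the balance of both marks, and the cause was not tested. Gene bodies alone gave 71, 355, 130, 67, 2 and 5, at least 150 bp gave 91, 430, 134, 57, 0 and 3, and absence also within 1 kb beyond the window gave 57, 263, 87, 39, 1 and 1. All annotated genes gave 156, 574, 311, 68, 2 and 5. Leaving out 1 library at a time, which admits more genes by construction, gave 114 to 415, 544 to 1203, 136 to 751, 71 to 270, 1 to 3 and 4 to 17. The highest values were without fwa replicate 1 for fwa only H3K27me3, without fwa replicate 2 for Col-0 only H3K27me3, without Col-0 replicate 1 for fwa only H3K4me3 and without Col-0 replicate 2 for Col-0 only H3K4me3. Settings chosen after seeing the data took fwa replicate 2 as the only fwa library for H3K4me3 (454 and 277 genes, 3 and 15 crossed), for both marks (12 and 39 crossed), or left it out of both (11 and 57 crossed), and the features of the H3K4me3 classes were read again without it. In the settings run for them (stricter q, gene bodies, 150 bp and equal list length for marked genes, stricter q for covered length, each library left out), marked genes and covered length per library kept their direction except without Col-0 replicate 2 for H3K4me3 (-188.3 genes and -0.39 Mb), with leave-one-out ranges of -188.3 to 1326.7 genes and -0.39 to 3.59 Mb for H3K4me3. With the replicate block of numbers 1 and 2, the H3K27me3 differences were -765 genes and -3.38 Mb (exact permutation p = 0.5) and the H3K4me3 differences 384 genes and 1.09 Mb (exact permutation p = 1), and the replicate numbers showed no pairing, with r of 0.188 and 0.0265 across genes over only 2 pairs. The narrower lists limit what absence of a peak shows.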
